A study of Mus musculus musculus x M. m. domesticus and Mus musculus domesticus and Mus musculus with 12 samples.

Results

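*Spinlw1*, *Aqp8* and *BC048507* are 3 autosomal genes, among 7000 with testis expression values, that the study classed as postmeiotic and listed as higher in sterile hybrid males. They were taken from its list of 45 sterility-correlated genes as the autosomal postmeiotic genes with higher expression in sterile males, leaving out *Cyp17a1*, the only other gene that met this description. The study called a gene sterility-correlated when its test passed the limit between sterile and fertile hybrids and also between sterile hybrids and at least 1 within-species cross. Its list keeps those that were postmeiotic and higher in sterile males, or mitotic and lower in them. The members were thus chosen by their measured differences between sterile and fertile males, which are given below as a description, without a test. Whole testis was taken from 12 males aged 60 days, 3 from each of 4 F1 genotypes, written with the mother first. The *DxD* males (LEWES/EiJ x WSB/EiJ) and *MxM* males (PWK/PhJ x CZECHII/EiJ) came from crosses within *M. domesticus* and within *M. musculus*. Of the hybrids, fertile *DxM* males had a LEWES/EiJ mother and a PWK/PhJ father, and sterile *MxD* males had a PWK/PhJ mother and a LEWES/EiJ father. No group was treated. Each hybrid genotype is represented by 1 pair of strains, and neither *DxD* nor *MxM* males are the parents of the hybrids.

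Spermatids, the haploid cells formed after meiosis, make up much of an adult testis, and transcripts that are most abundant in them usually drop when spermatids are scarce. *Spinlw1* (also called eppin) encodes a secreted serine protease inhibitor with a WAP and a Kunitz domain that coats sperm and is known from Sertoli cells and the epididymis. *Aqp8* encodes an aquaporin, a membrane channel for water that is known from the germ cells of rodent testis. *BC048507* carries only the name of a cDNA clone. In the study a class names the enriched cell population in which a gene was most strongly induced, which does not make the gene specific to those cells. Start positions on NCBI build 37 are 164413843 on chromosome 2 for *Spinlw1* (ENSMUSG00000017733_at), 130605886 on chromosome 7 for *Aqp8* (ENSMUSG00000030762_at) and 67964274 on chromosome 13 for *BC048507* (ENSMUSG00000064063_at), so the 3 genes are not neighbours.

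Expression was measured on 1 Affymetrix whole-genome mouse array per male, and values are log2 signals per gene that the authors quantile normalized. There is no read depth behind such values, and precision is limited by the number of arrays. The arrays share a range of 3.08 to 13.3 with a median of 8.14, and the members lie well inside it. Of all genes, 131 were at least 1 log2 unit lower in *MxM* replicate 3 than in every other male, and several differences of the members from *MxM* are also given without this male. Levels of different genes are not compared with each other, because each rests on its own probes. RNA came from whole testis, so fewer cells of a type and less RNA per cell cannot be told apart.

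*Spinlw1* had the largest difference of the 3 genes. It measured 9.46, 9.33 and 9.49 in the *MxD* males. In *DxM* males it measured 8.94, 8.97 and 8.98, and in *DxD* males 8.804, 8.998 and 8.985. In *MxM* males it measured 8.817, 8.794 and 9.003. All 9 fertile males fell within 0.21 log2 units, and the lowest *MxD* male was 0.33 above the highest of them. On the log2 scale the *MxD* mean was 0.46 above *DxM*, 0.50 above *DxD* and 0.56 above *MxM*, each with a standard error of 0.08 (limma, n = 3 per genotype). These differences correspond to 1.38-fold, 1.41-fold and 1.47-fold higher signal.

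*Aqp8* measured 8.28, 8.19 and 8.24 in *MxD* males. The *DxM* males measured 8.09, 8.02 and 8.04, and the *DxD* males 7.85, 7.97 and 7.94. The *MxM* males measured 7.963, 8.0004 and 8.180, so replicate 3 of this genotype came within 0.0098 of the lowest *MxD* male. The groups did not overlap, but the separation from *MxM* rests on that small gap. The *MxD* mean was higher by 0.19 than *DxM*, by 0.32 than *DxD* and by 0.19 than *MxM* on the log2 scale, each with a standard error of 0.07. Without *MxM* replicate 3 the last of these differences was 0.26.

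*BC048507* measured 10.93, 11.05 and 10.91 in *MxD* males and 10.72, 10.87 and 10.71 in *DxM* males. The *DxD* males were close together, at 10.67, 10.69 and 10.71. The *MxM* males were the most spread, at 10.40, 10.56 and 10.68. The lowest *MxD* male exceeded the highest fertile male, *DxM* replicate 2, by 0.031. The *MxD* mean was 0.19 above *DxM*, 0.27 above *DxD* and 0.42 above *MxM*, with a standard error of 0.08. Of the 3 genes, *BC048507* was nearest to the study's limit of 0.05, with a value of 0.0496 in the methods' t-test between the hybrids, computed here with unequal variances. This value describes how the gene was chosen and is no test of it. The postmeiotic gene next to that limit on its other side, among those whose class is known here and whose *MxD* mean was above each fertile mean, was ENSMUSG00000007907. It differed by 0.12 from *DxM*, 0.15 from *DxD* and 0.05 from *MxM*, with a value of 0.291.

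**Figure D1:**
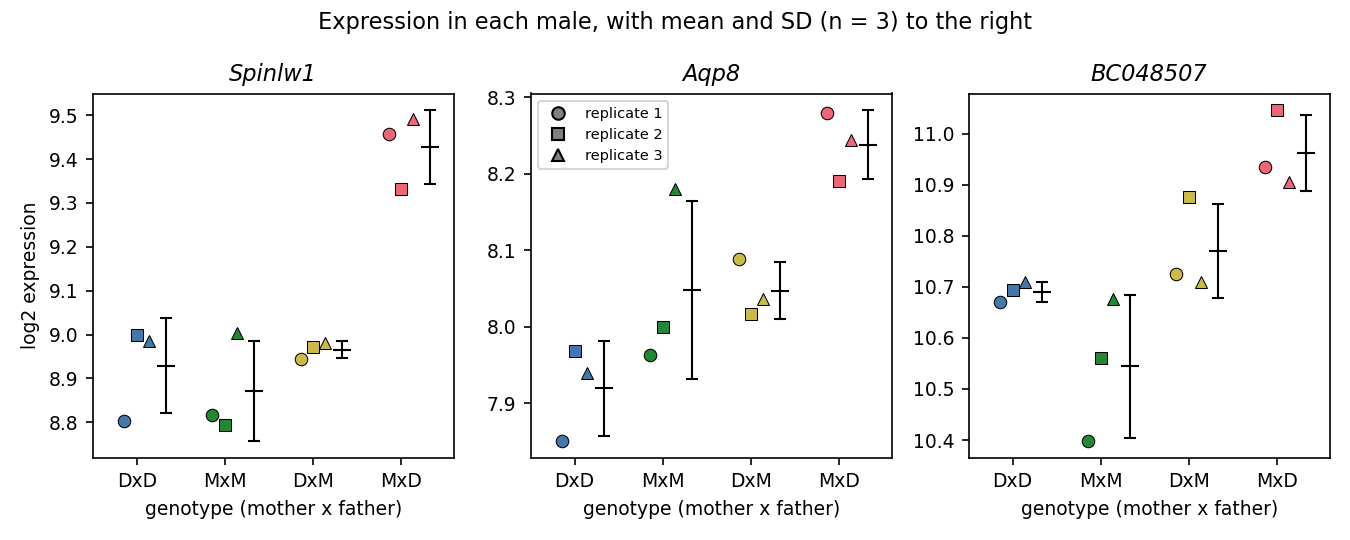
Expression (log2, vertical axis) of *Spinlw1*, *Aqp8* and *BC048507* in each of 12 males by genotype, with symbols for the replicates and bars for mean ± SD (n = 3). In each panel the *MxD* males lie above all 9 fertile males, by 0.33 for *Spinlw1*, 0.0098 for *Aqp8* and 0.031 for *BC048507*.

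In all 3 genes every *MxD* male was above every fertile male. Over all 7000 genes 5.47% showed the same separation, and nothing is read from this comparison because the members were chosen for it. The range over the 9 fertile males was 0.21 for *Spinlw1*, 0.33 for *Aqp8* and 0.48 for *BC048507*, against a median of 0.53 over all genes. A wider range was found in 96.7% of genes for *Spinlw1*, 83.0% for *Aqp8* and 57.8% for *BC048507*. A narrow range also favours selection by the study's test.

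The comparisons among the fertile genotypes did not themselves choose the members, but they reuse the fertile values that entered the choice. The effect of this reuse was not tested. The comparisons ask whether expression of these genes differed between the species or in the fertile hybrid. None of the 9 differences passed Benjamini-Hochberg adjustment over 7000 genes at 5% in limma, and 1 of the 9 had an unadjusted p under 0.05. That one was *BC048507* between *DxM* and *MxM*. The methods' test also gave 0 after adjustment and 1 before it, with equal or with unequal variances, but its one was *Aqp8* between *DxM* and *DxD*. Among all genes, limma called 31.9% between *DxD* and *MxM*, 12.1% between *DxM* and *DxD*, and 16.9% between *DxM* and *MxM*. The shares with an unadjusted p under 0.05 were 41.8%, 25.5% and 29.5% in the same order.

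*Spinlw1* differed by 0.06 between *DxD* and *MxM* (95% interval -0.12 to 0.24, limma adjusted p = 0.63). The *DxM* males were 0.04 above *DxD* (interval -0.14 to 0.21, limma adjusted p = 0.86) and 0.09 above *MxM* (interval -0.08 to 0.27, limma adjusted p = 0.48). Without *MxM* replicate 3 the *DxD* and *DxM* differences from *MxM* were 0.12 and 0.16. The intervals, which are not adjusted for the number of genes, all end below the smallest *MxD* difference of this gene, 0.46. That difference helped to choose the gene and has its own standard error of 0.08, so nothing is read from this comparison. In order of mean level the genotypes were *MxM* (8.87), *DxD* (8.93), *DxM* (8.96) and *MxD* (9.43), and the 3 fertile neighbours in this order did not differ beyond their spread.

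*Aqp8* was lower in *DxD* than in *MxM*, by a log2 difference of -0.13 (interval -0.29 to 0.03, limma adjusted p = 0.21). The *DxM* males were 0.13 above *DxD* (interval -0.03 to 0.29, limma adjusted p = 0.31), and they had the same mean as *MxM* to within 0.00040 (interval -0.16 to 0.16, limma adjusted p = 0.999). Without *MxM* replicate 3 the differences of *DxD* and *DxM* from *MxM* were -0.06 and 0.07. The intervals of the first 2 comparisons include differences as large as the 0.19 between the hybrids. The means were 7.92 in *DxD*, 8.05 in both *DxM* and *MxM*, and 8.24 in *MxD*. *DxD* did not overlap with *DxM*, and it overlapped with *MxM*. How many of all genes separate *DxD* from *DxM* in this way was not computed.

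*BC048507* had the largest difference among the fertile genotypes, 0.22 between *DxM* and *MxM* (interval 0.04 to 0.41), with *DxM* higher. It did not pass the adjusted threshold (limma adjusted p = 0.087, unadjusted p = 0.019). Every *DxM* male was above every *MxM* male, but the share of all genes with such a separation was not computed. Without *MxM* replicate 3 the difference was 0.29 and the limma adjusted p was 0.036. *DxD* was 0.15 above *MxM* (interval -0.03 to 0.33, limma adjusted p = 0.21), and *DxM* was 0.08 above *DxD* (interval -0.10 to 0.26, limma adjusted p = 0.62). The means were 10.54 in *MxM*, 10.69 in *DxD*, 10.77 in *DxM* and 10.96 in *MxD*. *Aqp8* was thus lowest in *DxD*, while *BC048507* and *Spinlw1* were lowest in *MxM*, although none of the differences between *DxD* and *MxM* passed the test. The array was designed on a largely *domesticus* genome, and the effect of sequence differences under the probes on these comparisons was not tested.

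**Figure D2:**
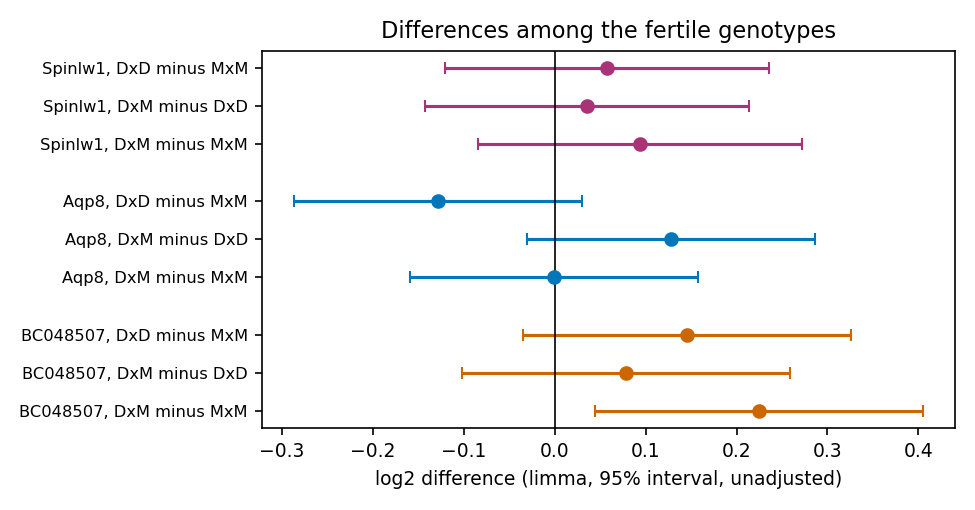
Log2 differences among the fertile genotypes (horizontal axis) for *Spinlw1*, *Aqp8* and *BC048507*, with points for the limma estimate and bars for its unadjusted 95% interval. The interval of *BC048507* between *DxM* and *MxM*, 0.04 to 0.41, is the only one of 9 that leaves out 0, and its adjusted p was 0.087.

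Most postmeiotic genes had lower rather than higher means in *MxD* males. Classes are known here for 1102 genes on chromosomes 1 to 4 and part of 5, with *Spinlw1* as the only member among them. Of 269 postmeiotic genes, the *MxD* mean was below that of each fertile genotype in 186, or 69.1%, and above it in 9. Among all genes, 27.8% had the lower mean and 27.2% the higher mean. Limma called 38 of the 269 lower in *MxD* than in *DxM* and 1 higher, which was *Spinlw1* and is no test of it, and over all genes it called 3.50% lower and 3.00% higher. Against *DxD* it called 90 lower and 11 higher, where 15.1% and 15.9% of all genes were called, and against *MxM* 105 lower and 10 higher, where 17.3% and 13.0% were called. The lower count against *DxM* was 93 with the replicate number as a block and 13 without *MxD* replicate 3. The *MxD* males lay above all fertile males in 1 of the 269, which was *Spinlw1*, and in 5.47% of all genes. The same separation was found in 2 of 324 meiotic, 71 of 367 mitotic and 15 of 142 somatic genes. The median difference of *MxD* from *DxM* was -0.20 over postmeiotic genes, against -0.00042 over all genes, 0.16 over 367 mitotic genes and 0.11 over 142 somatic genes. The 32 X-linked postmeiotic genes on the study's list were selected in the same way as the members and are not among the 269. In 27 of these 32 genes the *MxD* males lay above all fertile males. The smallest of the 3 differences of each X-linked gene from fertile genotypes ranged from 0.12 to 0.63. It was 0.46 for *Spinlw1* and 0.19 for *Aqp8* and *BC048507*.

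Taking for each gene the smallest of its 3 differences, *Spinlw1* was exceeded by 0 of 268 other postmeiotic genes, 0 of 324 meiotic genes, 6 of 367 mitotic genes and 2 of 142 somatic genes. *Aqp8* was reached by 1 of 269 postmeiotic genes, *Spinlw1* itself, and by 1 meiotic gene. It was reached by 90 mitotic genes, or 24.5%, and by 23 somatic genes, or 16.2%. *BC048507* was reached by 1 postmeiotic, 1 meiotic, 88 mitotic and 23 somatic genes. Over all other genes, 0.843% reached the smallest difference of *Spinlw1*, 7.43% that of *Aqp8* and 7.23% that of *BC048507*. Without *MxM* replicate 3 the number of mitotic genes was 102 for *Aqp8*, 101 for *BC048507* and 9 for *Spinlw1*, and the postmeiotic counts did not change. These counts are a description, because the members were chosen on the same differences from among postmeiotic genes. The difference between classes was not tested.

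**Figure D3:**
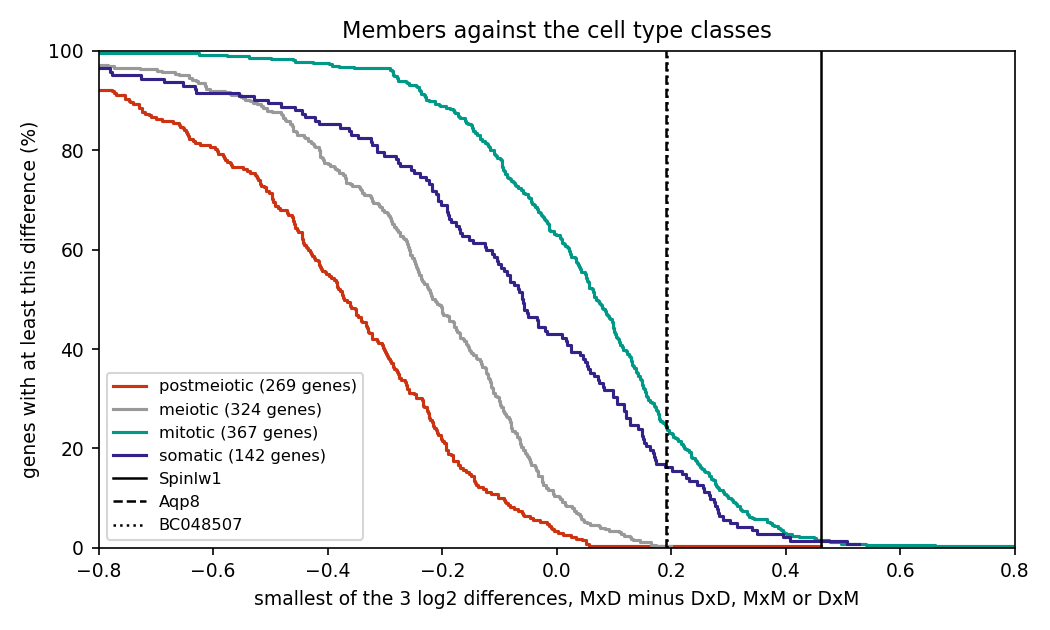
Share of genes in each cell type class (vertical axis, %) whose smallest log2 difference of *MxD* from *DxD*, *MxM* and *DxM* is at least the value on the horizontal axis, with vertical lines for the members. At the lines of *Aqp8* and *BC048507*, which nearly coincide at 0.19, the mitotic curve stands at 24.5% and 24.0%, and the postmeiotic curve at 0.372%.

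Of the class means, the mitotic mean was higher and the postmeiotic mean lower in all *MxD* males than in all fertile males, and the somatic and meiotic means overlapped. The mean log2 value of the 142 somatic genes ranged from 6.87 to 6.89 in *MxD* males, 6.71 to 6.77 in *DxD*, 6.77 to 6.81 in *DxM* and 6.76 to 6.91 in *MxM*. For the mitotic genes it was 7.71 to 7.82 in *MxD*, above all fertile males, which ranged from 7.46 to 7.62. The postmeiotic mean was 9.19 to 9.30 in *MxD*, below the 9.44 to 9.51 of fertile males. The mean of the 324 meiotic genes was 9.47 to 9.52 in *MxD*, 9.47 to 9.56 in *MxM*, 9.52 to 9.56 in *DxM* and 9.60 to 9.62 in *DxD*. *DxD* replicate 1 was the lowest male of its genotype in all 3 members and in the mitotic and somatic means. *MxM* replicate 3 was the highest male of its genotype in the same 5 measures, and in the somatic mean, at 6.91, it exceeded every *MxD* male. Within *DxM* the order of *BC048507* was that of the mitotic and somatic means, with replicate 2 highest, whereas *Aqp8* had replicate 2 lowest and *Spinlw1* had it in between. Within *MxD* the mitotic and somatic means were lowest in replicate 2 and highest in replicate 3. *Spinlw1* had the same order, *Aqp8* had replicate 2 lowest but replicate 1 highest, and *BC048507* had replicate 2 highest and replicate 3 lowest. The part of these classes in the members' differences was not tested.

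**Figure D4:**
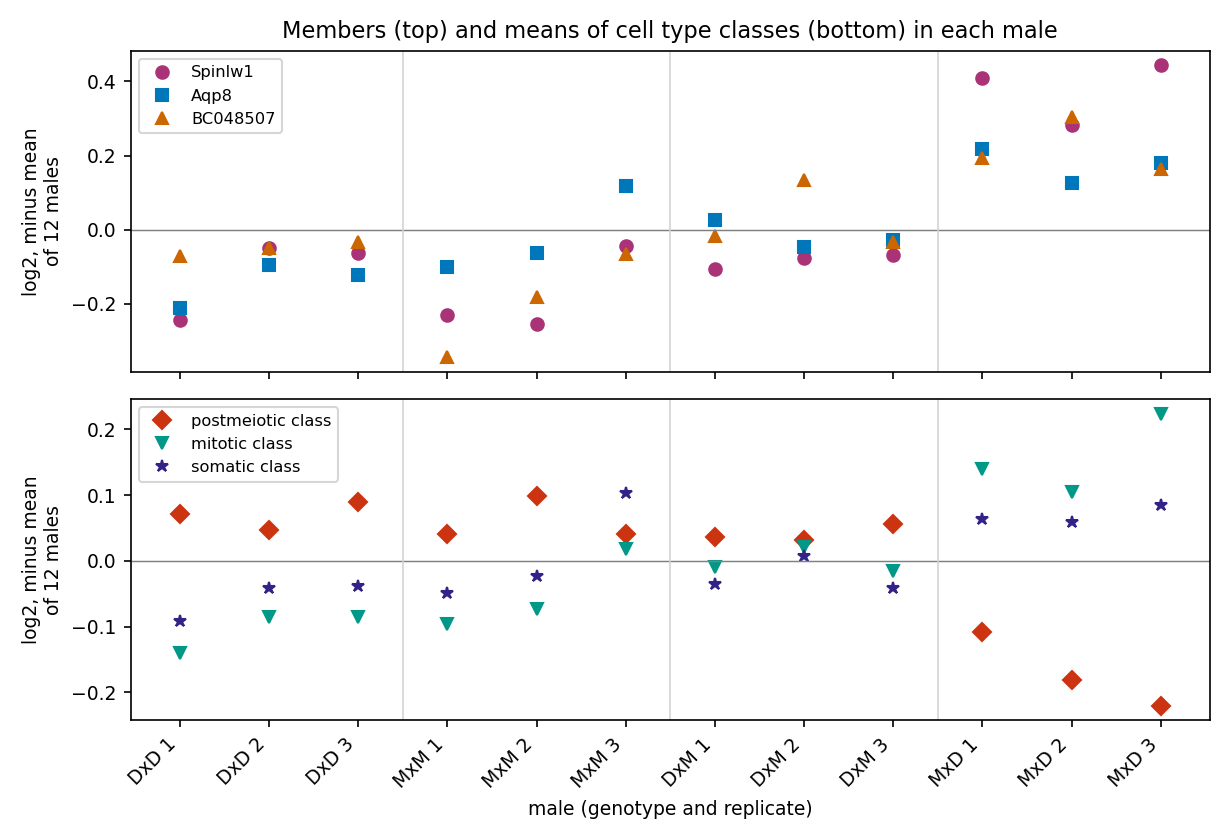
Log2 value of each member (top) and mean log2 value of the genes of 3 classes (bottom), each minus its mean over the 12 males, for every male. *MxM* replicate 3 stands highest of its genotype in the 3 members and in the mitotic and somatic means, and the *MxD* males are low in the postmeiotic mean.

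*Cyp17a1*, a steroidogenic enzyme of Leydig cells, is the fourth autosomal postmeiotic gene on the study's list with higher expression in *MxD*. Its level was 9.97 ± 0.63 in *MxM* (SD, n = 3), 10.1 ± 0.41 in *DxD*, 10.6 ± 0.14 in *DxM* and 11.2 ± 0.06 in *MxD*. Its *MxD* males did not overlap with fertile males, as in the members. *DxD* replicate 1 and *MxM* replicate 3 were again at the low and high end of their genotypes. Its range over fertile males was 1.15, wider than the 0.21 to 0.48 of the members.

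The genes with the pattern most like each member were found with Pearson's r over the 12 males, as a description. The *MxD* males were high in the members by choice, which enters every value. The gene most like *Spinlw1* was ENSMUSG00000067194 (r = 0.977, Spearman's rho = 0.846), which has no class here. The second, ENSMUSG00000026728, was mitotic (r = 0.963), and the third had no class here. *Aqp8* was most like 3 mitotic genes, with r from 0.947 to 0.975. Of the 1102 genes with a class, 367 were mitotic, and nothing is read from these classes. For *BC048507* the 3 highest values were 0.953 to 0.973, in genes without a class here. The members were not each other's nearest genes. *Aqp8* ranked 139 and *BC048507* ranked 241 in likeness to *Spinlw1*, with r of 0.855 and 0.812, and *Cyp17a1* ranked 82 with r of 0.887. In likeness to *Aqp8*, *BC048507* ranked 891 with r of 0.645.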

How the data were processed

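The log2 values were used as deposited. Before deposit, the authors had grouped probes by Ensembl gene (BRAINARRAY files, version 11), summarised them with PLIER, retained genes with detectable signal in every male and applied quantile normalization. Names, chromosomes and starts came from the study's list of 45 genes (Ensembl 52, NCBI build 37), and classes from the 1997 rows of its gene table that were used here. Of 231 marker and pathway symbols planned for comparison, 1 could be matched, so cell type classes were used instead. No sequences were used. Members and lists were chosen with earlier results of these data known.

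Tests used limma 3.58.1 (R 4.3.3) over all 4 genotypes, two-sided, called at a Benjamini-Hochberg adjusted p under 0.05. Nothing in the labels says that males came from separate litters, so p-values measure the spread between these males. The fit was tested on simulated data of 7000 genes for each comparison of fertile genotypes. It recovered 58% to 62% of genes changed by 0.5 log2 units and 91% to 97% of those changed by 1. False calls numbered 5 to 10, and smaller changes were not simulated. The simulated noise was independent between males, and only 100 genes were changed at each size. The real deviations were correlated between males, so these shares need not hold for the real arrays. Alternatives were the methods' t-test, fits of the compared genotypes only, the replicate number as a block, another prior, a filter on dim genes, repeated normalization, autosomal centring and each male left out. Deviations of same-numbered males correlated across genes above 0.1 in every pair for *DxM* with *DxD* (lowest 0.162, highest 0.754). The same held for *MxD* with each fertile genotype (lowest 0.151, highest 0.756). The labels do not say what the numbers mark, and males of unlike number were not compared for these pairs. Pairing is therefore not shown, and the main fit does not use the numbers. With the numbers as a block, more genes were called in every comparison. The calls rose from 455 to 1201 between *MxD* and *DxM* and from 844 to 1584 between *DxM* and *DxD*. Named genes were the members, *Cyp17a1* and the genes most like each member. Genes next to the members on their chromosomes had been planned and were not analysed here. Figures were drawn with matplotlib 3.10.9.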

Additional observations from a re-analysis of the deposited data

How the results depend on the processing

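Each of the 9 differences among fertile genotypes was recomputed under 20 alternatives, and 173 of the 180 values kept their direction and their side of the threshold. *BC048507* between *DxM* and *MxM* passed it under 2. Blocked on the replicate number (replicate block), the difference of 0.22 had a limma adjusted p of 0.041, and without *MxM* replicate 3, with 0.29, it was 0.036. Over all alternatives its adjusted p ranged from 0.036 to 0.35, and each male left out in turn gave 0.15 to 0.29. In this comparison the numbers are not shown to pair the males: 3 of 6 males correlated best with their own number, and over all genes the block raised the calls from 1181 to 1918. The block changed no other call of the members. Differences near 0 changed sign. *Aqp8* between *DxM* and *MxM* was 0.0018 with arrays centred on the autosomal median and ranged from -0.043 to 0.066 with each male left out. *Spinlw1* between *DxM* and *DxD* ranged from -0.027 to 0.071 with each male left out, below 0 without *DxD* replicate 1. The 9 differences of *MxD* kept their direction and moved by less than 1 SD under all 126 recomputed values. Many of these leave out a male of another genotype and so cannot change, and repeated normalization left the differences as they were. The counts of classed genes without *MxM* replicate 3 were a setting chosen after seeing the data.

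Counts of classed genes called between *MxD* and *DxM* depended on the test. Of 269 postmeiotic genes limma called 38 lower and 1 higher, and 93 and 1 with the replicate block. The methods' t-test called 0 or 1 lower. Without *MxD* replicate 3 the lower count was 13, without *DxM* replicate 1, 2 or 3 it was 17, 18 and 18, and without *DxD* replicate 2 or 3 it was 21 and 25. Of 142 somatic genes, 7 were called higher and 2 lower, or 27 and 6 with the block and 0 and 0 in the methods' t-test. Without the dimmest 25% of genes the counts were 3 and 0, taken only over the somatic genes that were kept. With each male left out in turn the somatic counts ranged from 2 to 15 higher, the 15 without *MxM* replicate 3, and from 1 to 5 lower, the 5 without *MxM* replicate 1. The number of arrays limits the precision.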
